A study of Mus musculus with 48 samples.

Results

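The cell division programme examined here comprised 49 genes, 27 of DNA replication and the G1/S transition (S-phase genes) and 22 of G2 and mitosis (G2/M genes, from Ccna2 on). They were chosen by symbol, from a list of well-known members of each phase, among the 27281 rows of a normalized RNA-Seq abundance table of murine striatal progenitor cells. All 49 were found, each on 1 row, and all 49 passed the filter on low values. In dividing mammalian cells the S-phase genes are switched on by E2F transcription factors as a cell commits to replicate its DNA, and their products load the replicative helicase, open the origins, supply deoxynucleotides and repack the new DNA into chromatin. The G2/M genes come on later, largely through B-MYB and FOXM1. Many cell cycle genes carry E2F, CHR (cell cycle genes homology region) or CCAAT letters near the transcription start. The products of the G2/M genes build the spindle, condense and join chromosomes and time their separation. Cells that stop growing for lack of serum silence both sets, so the level of these mRNAs is widely read as a mark of cycling cells.

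The study treated serum-starved STHdhQ111 cells, a cell culture model of Huntington's disease, with 14 compounds picked as protective of these cells, and asked what each compound changed. There were 48 samples, 3 in each of 16 conditions. All came from C57BL/6 striatal progenitor lines, all were kept 24 h in serum-free medium, and the vehicle was DMSO. The STHdhQ111 line carries a homozygous knock-in of mutant huntingtin and the STHdhQ7 line is wild type.

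The vehicle groups (labelled Q111SST and Q7SST) were serum-starved with DMSO and no compound, and all 14 compound groups were STHdhQ111 cells. The compounds given at 10 µM were diacylglycerol kinase inhibitor II (DKI), selisistat, loxapine, cyproheptadine and meclizine. Pizotifen was given at 5 µM and cysteamine at 250 µM. Sodium butyrate was given at 1 mM and 4-deoxypyridoxine (DOP) at 4 mM. Fingolimod phosphate was given at 250 nM, trichostatin A at 10 nM, nortriptyline at 1 nM, and nicotinamide and haloperidol at 0.5 nM. Each genotype is 1 conditionally immortalized line, so genotype and line cannot be told apart, and nothing in the labels says that the 3 samples of a condition came from independent cultures beyond their collection day and time. DKI and cyproheptadine were collected in the same slots of day and time as each other, with no sample of day 1 and 2 of day 3, whereas every other condition had 1 sample on each of days 1, 2 and 3. Selisistat and the STHdhQ7 vehicle were collected in the slots of the STHdhQ111 vehicle, and the other compounds on the vehicle's days at other times.

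The values are log2 abundances as deposited, with no read depth behind them, and they are not scaled to gene length, so only levels of the same gene are compared. Within a condition the genome-wide correlation between samples was 0.9964 to 0.9994. Of the markers used to check the label, Vim (14.79 to 15.70) and the striatal factors Dlx1 and Dlx2 were present, whereas the progenitor gene Fabp7 (highest sample 1.14) lay near the lowest values of the table, as did neuronal Rbfox3, astrocytic Gfap and microglial Aif1 and Cx3cr1. Not all markers of these other cell types were that low. Of the other neuronal markers, Map2 and Tubb3 had means of 8.37 and 4.72 over the 48 samples, Syp 2.61 and Snap25 -0.82. Of the endothelial markers, Pecam1 had a mean of 8.35 and Cdh5 0.22. Col1a1 and Col3a1, collagen genes typical of fibroblasts, were at 13.63 to 15.14 and 10.94 to 12.97, and Ptprc, a leukocyte gene, reached 10.92. The label of striatal progenitor therefore rested on part of its marker list.

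RefSeq promoter windows of the mouse GRCm38.p6 build, 250 bases before to 50 after the start, were at hand for 40 of the 49 genes (42 windows). No window was used for Mcm4, Gins1, Gins2, Ccne2, Ccna2, Cdc25c, Aurkb, Kif20a and Tpx2. The stretches that follow, the 100 bases that end just before the start, are shown because they carry the letters by which the 2 phases differed. The first 4 belong to G2/M genes, the mitotic kinesin Kif11, the anaphase activator Cdc20, the mitotic kinase Cdk1 and the chromosome-untangling topoisomerase Top2a, with the CHR letters (TTTGAA or TTCGAA, read on either strand, TTCAAA being the reverse complement of TTTGAA) in capitals. The last 4 belong to S-phase genes, the ribonucleotide reductase subunit Rrm1, the maintenance methylation factor Uhrf1, the histone chaperone subunit Chaf1a and the helicase subunit Mcm6, with E2F letters (TTCCCGC or TTGGCGC, either strand) in capitals.
Kif11: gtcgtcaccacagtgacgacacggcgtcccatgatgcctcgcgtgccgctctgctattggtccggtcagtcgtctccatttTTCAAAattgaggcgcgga
Cdc20: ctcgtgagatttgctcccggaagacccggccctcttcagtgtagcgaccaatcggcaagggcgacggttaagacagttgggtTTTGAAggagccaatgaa
Cdk1: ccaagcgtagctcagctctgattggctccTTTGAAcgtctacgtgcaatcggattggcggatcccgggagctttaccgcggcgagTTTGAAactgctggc
Top2a: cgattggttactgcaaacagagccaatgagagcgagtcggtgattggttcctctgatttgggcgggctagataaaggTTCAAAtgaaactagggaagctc
Rrm1: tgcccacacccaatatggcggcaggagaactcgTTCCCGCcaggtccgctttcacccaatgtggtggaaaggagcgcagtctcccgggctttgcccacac
Uhrf1: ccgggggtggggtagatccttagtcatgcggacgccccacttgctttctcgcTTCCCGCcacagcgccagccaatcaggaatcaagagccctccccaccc
Chaf1a: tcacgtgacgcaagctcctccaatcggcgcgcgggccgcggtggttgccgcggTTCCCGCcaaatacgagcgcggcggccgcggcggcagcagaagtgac
Mcm6: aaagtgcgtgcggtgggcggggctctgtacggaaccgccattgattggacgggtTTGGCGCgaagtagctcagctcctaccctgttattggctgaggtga

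The positions were chr19:37376282-37376381 (Kif11, plus strand), chr4:118437344-118437443 (Cdc20, minus strand), chr10:69352913-69353012 (Cdk1, minus strand), chr11:99024190-99024289 (Top2a, minus strand), chr7:102441595-102441694 (Rrm1, plus strand), chr17:56303237-56303336 (Uhrf1, plus strand), chr17:56040316-56040415 (Chaf1a, plus strand) and chr1:128359706-128359805 (Mcm6, minus strand). E2F letters stood in 15 of 25 S-phase windows (60%) and 3 of 17 G2/M windows (17.6%), against 6.81% of all 32851 windows of the same length. CHR letters showed the opposite split, with 4 of 25 S-phase windows (16%) and 13 of 17 G2/M windows (76.5%), against 19.2% of all windows. The CCAAT pentamer was frequent in both, in 17 of 25 (68%) and 15 of 17 windows (88.2%), against 37.4% of all. No motif searched contains another, and a match is a description of the sequence and not a bound site.

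**Figure D1:**
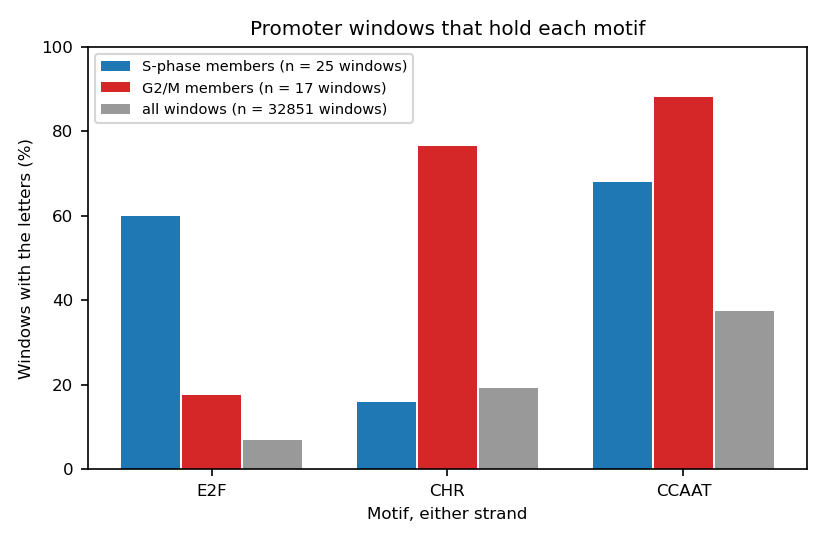
Share of promoter windows (%, vertical axis) that hold the E2F, CHR or CCAAT letters on either strand, in 25 windows of S-phase genes, 17 of G2/M genes and all 32851 windows. E2F letters mark the S-phase bars (60%), CHR letters the G2/M bars (76.5%), and CCAAT letters are high in both.

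Across the 16 conditions the G2/M genes moved over a wider range than the S-phase genes. The range of condition means was 0.46 to 1.05 log2 units per G2/M gene (median 0.75) and 0.20 to 0.94 per S-phase gene (median 0.46), while the typical SD among 3 samples was 0.051 to 0.10 and 0.031 to 0.090. Of the 22 G2/M genes, 19 had their lowest mean with DKI and the other 3 with meclizine (Cdc25c and Bub1b) or in STHdhQ7 cells (Ccnb2). The S-phase minima were split among treatments, 8 of 27 with DOP and 6 with DKI, and 13 of 27 S-phase genes were highest in STHdhQ7 cells.

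**Figure D2:**
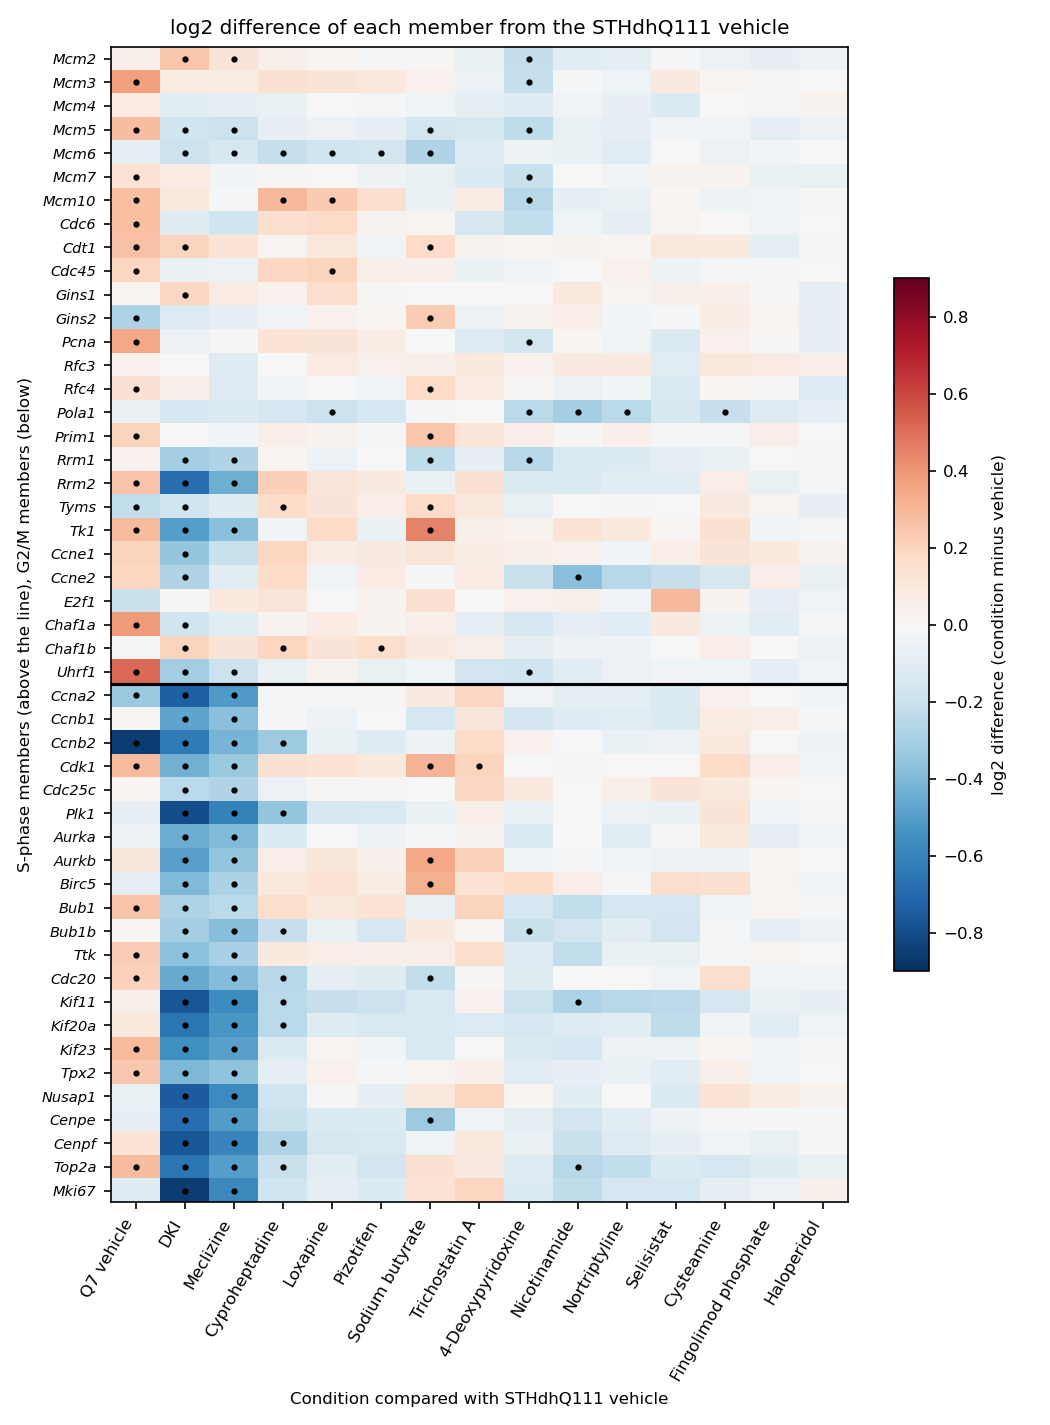
log2 difference of each of the 49 genes (rows, S-phase genes above the line, G2/M genes below) between each condition (columns) and the STHdhQ111 vehicle, from lower (blue) to higher (red), with dots for limma adjusted p under 0.05. All 22 G2/M cells are blue and dotted for DKI and for meclizine.

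DKI and meclizine each lowered every G2/M gene relative to the STHdhQ111 vehicle. With DKI all 22 were called lower in limma (Benjamini-Hochberg adjusted p under 0.05 over 13409 genes), by -0.25 to -0.85 log2 units with a median of -0.52, where 21.9% of all genes tested were called lower and the median gene was at -0.0058. With meclizine all 22 were called lower as well, by -0.24 to -0.61 with a median of -0.41, against 13.6% of all genes and a median gene at -0.0037. Both compounds were compared with the same 3 vehicle samples, so the 2 sets of calls are not independent. The DKI samples and the vehicle differ in collection days, and the 36 calls of all 49 genes with DKI (4 higher, 32 lower) were again 4 higher and 32 lower without the day term, with a G2/M median of -0.52, and 0 higher and 25 lower when only these 6 samples were fitted, with a G2/M median of -0.49. Markers of other cell types also differed from the vehicle with both compounds. Of 4 fibroblast markers 3 were lower with DKI (Col3a1 -1.21, Col1a1 -0.87, Pdgfra -0.22) and 2 with meclizine (Col3a1 -0.82, Col1a1 -0.55), and their summed level was 14.83 to 15.05 on the log2 scale in the vehicle samples, 13.90 to 14.18 with DKI and 14.36 to 14.39 with meclizine. Of 8 progenitor markers tested 3 were lower with DKI, among them Sox9 (-0.58) and Vim (-0.50), and 1 with meclizine (Vim, -0.23), and of 3 neuronal markers tested Tubb3 was higher with both (0.46 and 0.45), with Rbfox3 near the lowest values of the table throughout. Among the glial markers Aldh1l1 was lower with DKI (-0.15), and none of 3 microglial and endothelial markers tested was called. Such marker shifts were not particular to DKI and meclizine. Cyproheptadine, whose G2/M median was -0.15, also had Col3a1 (-1.39) lower and Tubb3 (0.41) higher. Its summed fibroblast marker level was 14.24 to 14.42. With sodium butyrate 3 of 4 fibroblast markers were higher instead. The part of the markers in the G2/M values was not tested. In whole cultures, fewer cells in G2 and mitosis and less of these RNAs per cell cannot be told apart.

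Mki67, the proliferation antigen that coats mitotic chromosomes, was at 11.60, 11.42 and 11.35 in the 3 vehicle samples, 10.34, 10.86 and 10.60 with DKI and 10.70, 11.14 and 10.80 with meclizine (log2 values). Every treated sample lay under every vehicle sample. Its log2 difference was -0.85 (SE 0.11) for DKI, a level of 0.553 of the vehicle (limma adjusted p = 3.51e-08), and -0.58 for meclizine (SE 0.11, limma adjusted p = 7.77e-05). Plk1, the kinase that drives entry into mitosis and spindle assembly, was at 9.86, 9.77 and 9.82 with vehicle, 8.95, 9.18 and 8.93 with DKI and 9.24, 9.30 and 9.09 with meclizine. It had the largest fall of all 49 genes with meclizine, at -0.61 (SE 0.071, limma adjusted p = 2.98e-08), and fell by 0.80 on the log2 scale with DKI (SE 0.072, limma adjusted p = 1.87e-11). Again no treated sample reached the lowest vehicle sample.

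The falls covered every role. The 5 cyclin and CDK genes all fell with both compounds. Among them, cyclin A2 (Ccna2), which runs from S phase into G2, was at -0.74 with DKI and -0.51 with meclizine, and the B-type cyclins Ccnb1 and Ccnb2, partners of Cdk1 at mitotic entry, were at -0.48 and -0.64 with DKI and at -0.38 and -0.42 with meclizine. Cdc25c, the phosphatase that activates Cdk1, had the smallest fall with DKI (-0.25, meclizine -0.27).

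All 8 genes of mitotic kinases and the spindle checkpoint fell, including the Aurora kinases Aurka (-0.45 with DKI, -0.40 with meclizine) and Aurkb (-0.49, -0.35). The checkpoint genes Bub1, Bub1b and Ttk hold cells until kinetochores are attached. With DKI they were at -0.28, -0.31 and -0.37, smaller falls than those of the Aurora kinases. With meclizine they were at -0.24, -0.38 and -0.29. Bub1 with meclizine was the only G2/M value of either compound whose samples overlapped the vehicle's, so the samples stood wholly below the vehicle for 22 of 22 genes with DKI and 21 of 22 with meclizine, beside 26.7% and 21% of all genes. Its DKI call was lost without DKI replicate 3, and its meclizine call without vehicle replicate 1 or 2 or meclizine replicate 1 or 3. Ttk and Birc5, the survivin of the chromosomal passenger complex, lost their meclizine calls without meclizine replicate 3, and Birc5 also without vehicle replicate 3, and the other 21 DKI calls and 19 meclizine calls stood in each of the 6 fits.

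The 7 genes of the spindle and kinetochore had a median of -0.68 with DKI and -0.53 with meclizine. Nusap1, which bundles spindle microtubules, was at 9.78, 9.63 and 9.59 with vehicle, 8.75, 9.15 and 8.87 with DKI and 8.99, 9.31 and 8.99 with meclizine. The treated samples were all lower, and the limma differences were -0.75 (SE 0.092, adjusted p = 2e-08) and -0.57 (SE 0.091, adjusted p = 8.61e-06). Kif11, the motor that pushes the spindle poles apart and whose promoter was shown with its CHR letters, was at -0.77 with DKI and -0.57 with meclizine, and the kinetochore genes Cenpe and Cenpf were at -0.68 and -0.77 with DKI and -0.50 and -0.59 with meclizine.

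Top2a, which disentangles sister chromosomes, was at 12.32, 12.20 and 12.07 with vehicle, 11.41, 11.70 and 11.53 with DKI and 11.59, 11.89 and 11.62 with meclizine. All treated samples were lower than all vehicle samples, with limma differences of -0.65 (SE 0.081, adjusted p = 2.61e-08) and -0.50 (SE 0.080, adjusted p = 9.96e-06). Among the 17 G2/M genes with a promoter window, the median difference was -0.55 with DKI and -0.42 with meclizine for the 13 with CHR letters, and -0.58 and -0.44 for the 4 without.

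**Figure D3:**
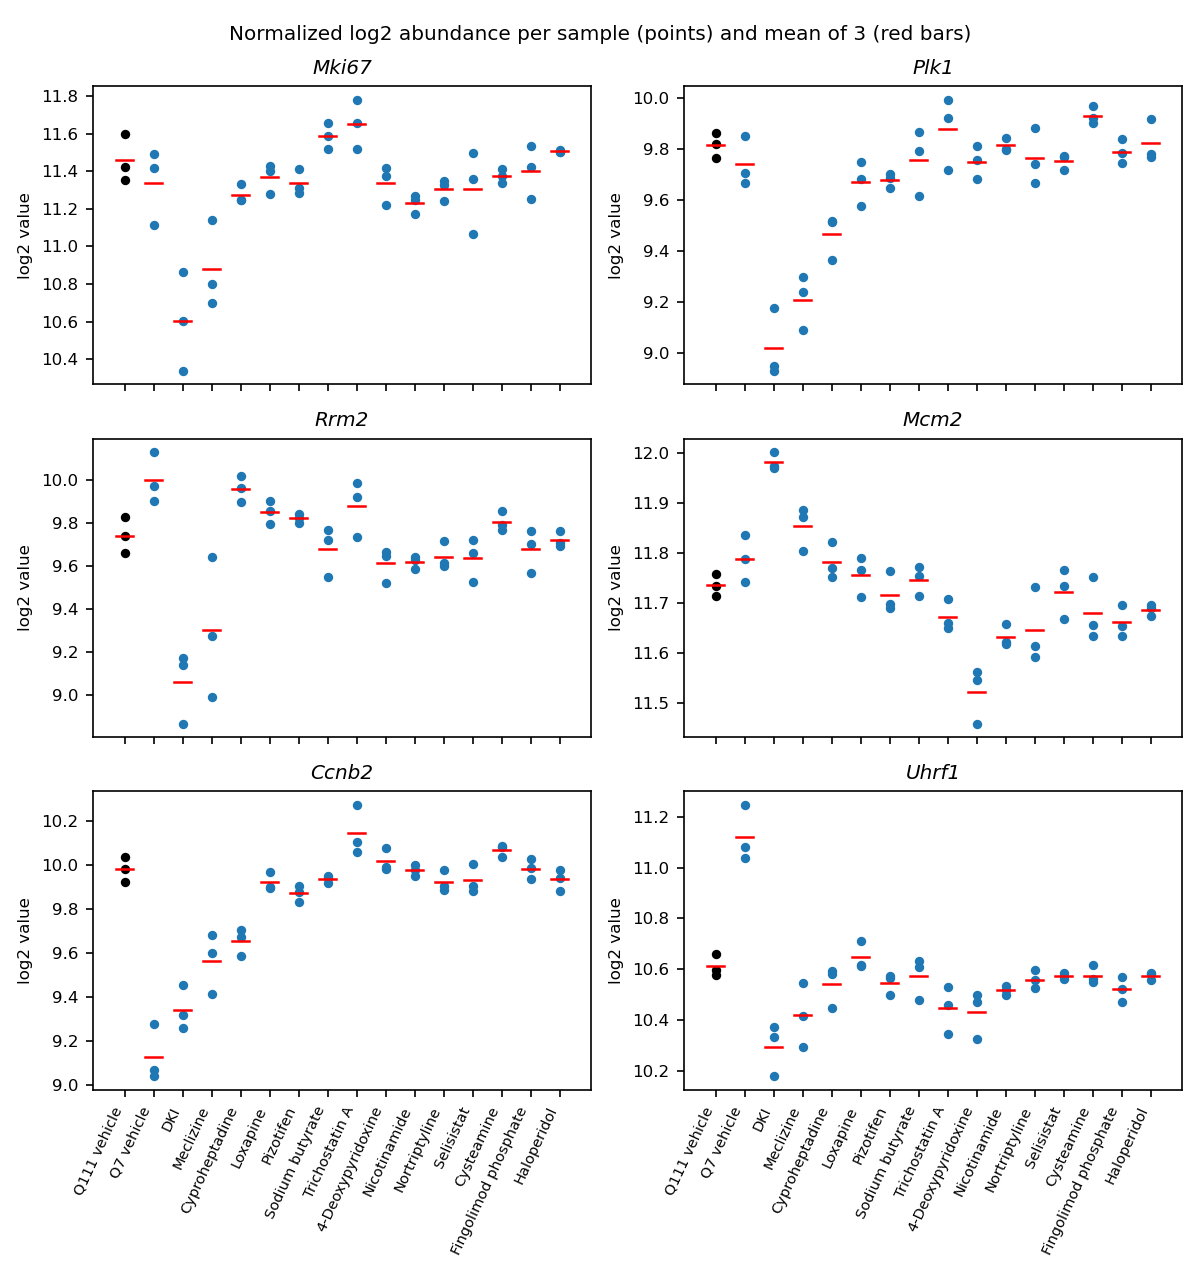
log2 value of Mki67, Plk1, Rrm2, Mcm2, Ccnb2 and Uhrf1 (vertical axes) in each of the 48 samples (points) by condition, with the mean of 3 as a red bar and the STHdhQ111 vehicle in black. By condition mean, DKI and meclizine lie lowest for Mki67, Plk1 and Rrm2 and highest for Mcm2, and STHdhQ7 lies lowest for Ccnb2 and highest for Uhrf1.

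The S-phase genes were split under DKI and meclizine. With DKI 10 of 27 were called lower and 4 higher (median -0.10), beside 21.9% and 20.4% of all genes tested. With meclizine 6 were called lower and 1 higher (median -0.096), beside 13.6% and 13.1%. The median of the S-phase genes was thus far closer to the median of all genes than that of the G2/M genes.

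The genes of deoxynucleotide supply were the S-phase group in which most members fell with both compounds, 4 of 4 with DKI and 3 of 4 with meclizine. Rrm2, the ribonucleotide reductase subunit made in S phase, was at 9.82, 9.66 and 9.74 with vehicle, 8.87, 9.17 and 9.14 with DKI and 8.99, 9.64 and 9.27 with meclizine. All treated samples were lower than all vehicle samples, although the second meclizine sample came close to the lowest of these. The limma difference was -0.68 for DKI (SE 0.094, adjusted p = 2.24e-07) and -0.44 for meclizine (SE 0.093, adjusted p = 0.00045). Tk1, the thymidine kinase of the salvage route, was at 9.75, 9.77 and 9.89 with vehicle, 9.08, 9.47 and 9.37 with DKI and 9.32, 9.57 and 9.39 with meclizine. Its samples did not overlap either, with limma differences of -0.50 (SE 0.071, adjusted p = 4.14e-07) and -0.38 (SE 0.071, adjusted p = 8.73e-05). Rrm1, the constitutive partner of Rrm2, was at 11.66, 11.54 and 11.52, 11.24, 11.35 and 11.21 and 11.20, 11.43 and 11.27 in the same order and fell by less, at -0.31 and -0.27. Tyms, which makes thymidylate, was lower with DKI (-0.18, adjusted p = 0.00557) and at -0.11 with meclizine (limma adjusted p = 0.113).

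The helicase and origin genes did not move together. Mcm2, a helicase subunit, was at 11.71, 11.73 and 11.76 with vehicle, 12.00, 11.97 and 11.97 with DKI and 11.89, 11.80 and 11.87 with meclizine. Its treated samples all lay above the vehicle's, and it was called higher by 0.25 for DKI (SE 0.043, limma adjusted p = 1.13e-05) and 0.12 for meclizine (SE 0.042, limma adjusted p = 0.0326). The other subunits Mcm5 and Mcm6 were lower with both compounds, at -0.18 and -0.19 with DKI and -0.19 and -0.15 with meclizine. Mcm3, Mcm4 and Mcm7 did not pass the test with either. The licensing factor Cdt1 (0.20), the GINS subunit Gins1 (0.19) and the chromatin assembly subunit Chaf1b (0.20) were called higher with DKI, and their meclizine values of 0.12, 0.072 and 0.12 were not called. Leaving out single samples ended the meclizine calls of Mcm2 (without vehicle replicate 1 or 2 or meclizine replicate 1 or 3) and Mcm6 (without vehicle replicate 1 or meclizine replicate 1), and the DKI calls of Mcm5 (without DKI replicate 1) and Gins1 (without any of the 6 samples but DKI replicate 1).

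Of the S-phase entry genes, the E-type cyclins Ccne1 and Ccne2 were lower with DKI (-0.35 and -0.27), and their meclizine values of -0.20 and -0.096 were not called. Uhrf1, which reads hemimethylated DNA at the fork and whose promoter was shown with its E2F letters, was at 10.66, 10.60 and 10.58 with vehicle, 10.18, 10.33 and 10.37 with DKI and 10.29, 10.55 and 10.41 with meclizine. All treated samples lay below the vehicle's, with differences of -0.32 for DKI (SE 0.061, limma adjusted p = 4.85e-05) and -0.19 for meclizine (SE 0.060, limma adjusted p = 0.0136). The calls of Uhrf1 with meclizine (without vehicle replicate 1 or meclizine replicate 1), of Ccne1 with DKI (without DKI replicate 1) and of Ccne2 with DKI (without vehicle replicate 1 or 2 or DKI replicate 1) each rested on those samples. Chaf1a was lower with DKI (-0.18) and lost its call without vehicle replicate 1 or 3 or DKI replicate 1 or 3. The 5 genes of the fork (Pcna, Rfc3, Rfc4, Pola1 and Prim1) gave no call with either compound in limma, and only Pola1 with DKI (-0.15) and Rfc3 with meclizine (-0.12) had an unadjusted p under 0.05.

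**Figure D4:**
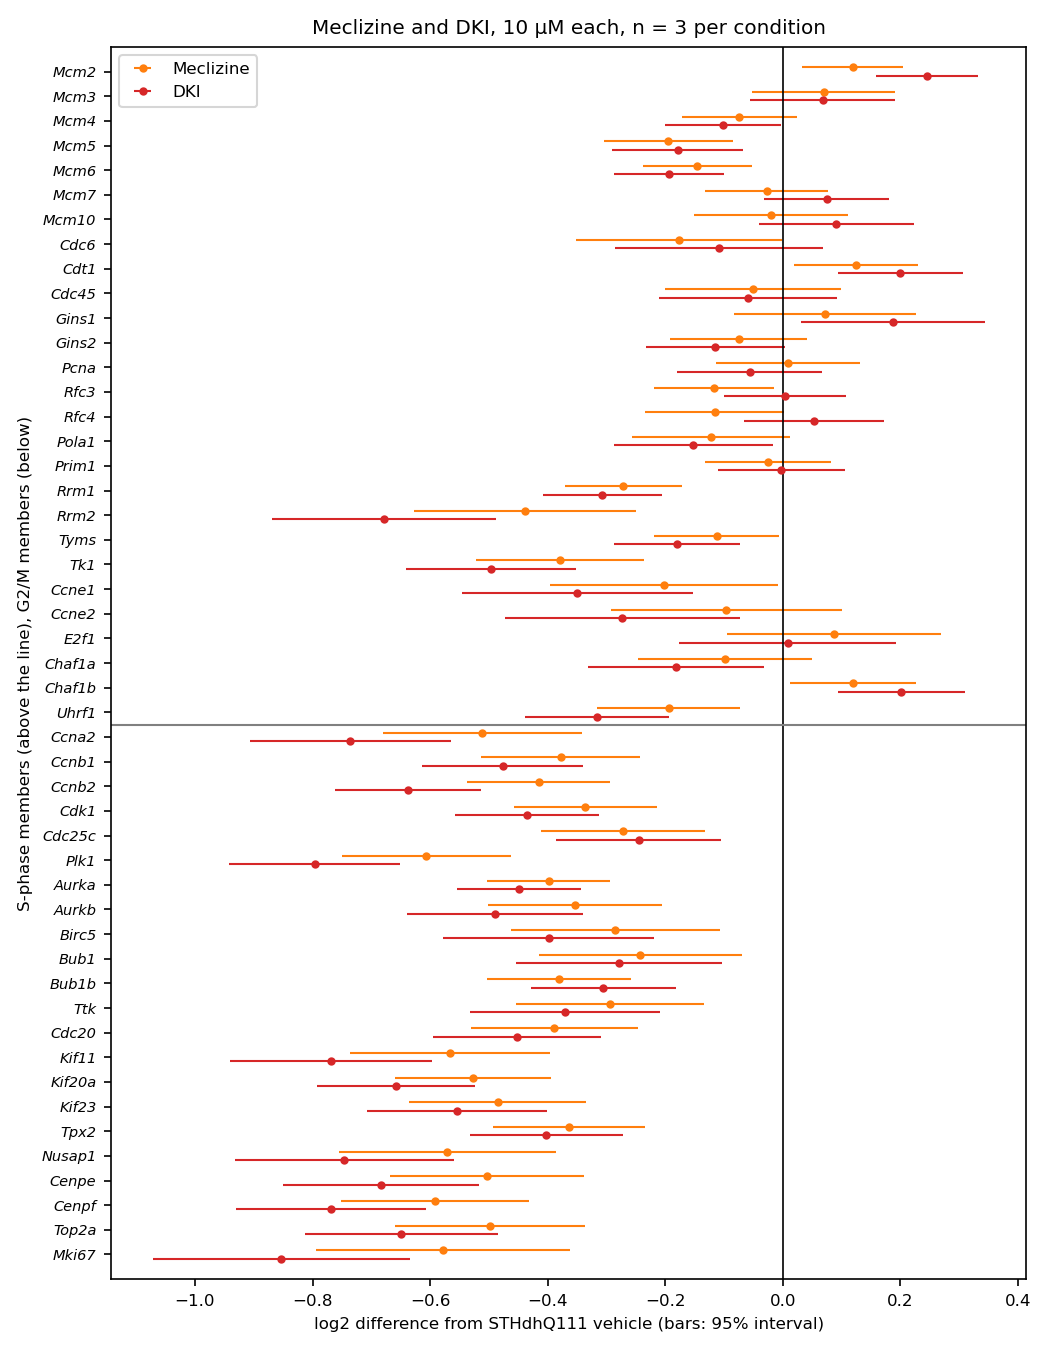
log2 difference from the STHdhQ111 vehicle (horizontal axis) with 95% intervals from the limma fit (bars) for each of the 49 genes under meclizine (orange) and DKI (red), both at 10 µM with 3 samples. All 22 G2/M intervals of both compounds lie left of 0, and S-phase genes lie on both sides.

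Set against each other at their shared dose of 10 µM, meclizine and DKI differed by limma in 1 of 49 genes, beside 8.11% of all genes tested. Ccnb2 was 0.22 log2 units higher with meclizine (95% interval 0.10 to 0.35, adjusted p = 0.0175), and its meclizine samples at 9.68, 9.60 and 9.41 overlapped the DKI samples at 9.32, 9.45 and 9.26. The G2/M median difference was 0.12. For Mki67 the difference was 0.28 (95% interval 0.06 to 0.49, adjusted p = 0.111) and for Plk1 0.19 (95% interval 0.04 to 0.33, adjusted p = 0.0976), so a smaller fall with meclizine was not separated from the spread, nor were the values shown to be equal. At an unadjusted p under 0.05 there were 11 genes, 8 of them higher with meclizine. This pair was chosen after the values were seen, and the p-values are adjusted over genes and not over the 3 pairs of compounds that were compared. The Ccnb2 call was lost without meclizine replicate 1 or 2 or DKI replicate 1 or 3, and the count ranged from 0 (without meclizine replicate 2, or DKI replicate 1 or 3) over 3 and 2 (without meclizine replicate 1 and 3) to 7 (without DKI replicate 2).

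The falls were also present against references other than the vehicle. Meclizine was collected in the same slots as haloperidol, whose own profile had 0 of 13409 genes called against the vehicle by limma (397 at an unadjusted p under 0.05). Against haloperidol 29 of the 49 genes were lower and 3 higher (limma), with all 22 G2/M genes lower at a median of -0.37, beside 12.8% and 12.9% of all genes. DKI was collected in the same slots as cyproheptadine at the same dose, and in that pair, chosen after the values were seen, 33 genes were lower with DKI and 2 higher, beside 13.9% and 14.7% of all genes. Of the G2/M genes 21 of 22 were lower in that comparison, from -0.72 for Ccna2 to -0.19 for Cdc25c, and Bub1b was not called (-0.096). The calls of Cdc20 (without cyproheptadine replicate 1 or 3 or DKI replicate 3) and Cdc25c (without any of the 6 samples but DKI replicate 2) rested on single samples. Rrm2 had the largest difference of all, -0.90 (SE 0.093, limma adjusted p = 1.49e-09), with DKI samples at 8.87, 9.17 and 9.14 and cyproheptadine samples at 9.90, 9.96 and 10.02. Unlike haloperidol, cyproheptadine had 35.6% of all genes called against the vehicle by limma. Its Rrm2 samples lay above all vehicle samples, and against the vehicle the DKI difference of Rrm2 was -0.68.

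**Figure D5:**
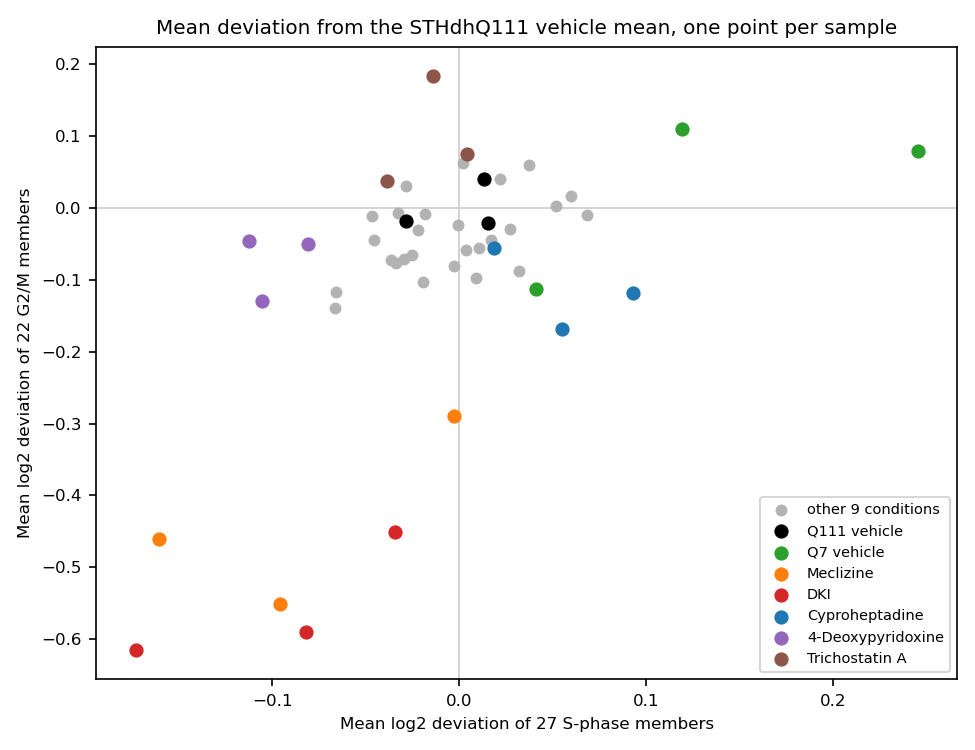
Mean log2 deviation from the vehicle mean over the 27 S-phase genes (horizontal axis) and over the 22 G2/M genes (vertical axis), 1 point per sample. The DKI samples (-0.62, -0.45 and -0.59) and meclizine samples (-0.46, -0.29 and -0.55) lie below the other 42 samples on the G2/M axis. On the S-phase axis the STHdhQ7 samples lie at 0.25, 0.041 and 0.12 and the DOP samples at -0.11, -0.11 and -0.081. The lowest DKI and meclizine samples there are at -0.17 and -0.16.

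Cyproheptadine, loxapine and pizotifen, tricyclic antagonists of amine receptors, left a smaller mark. With cyproheptadine 8 of 22 G2/M genes were lower and none higher (median -0.15), beside 18.2% of all genes called lower, and 3 S-phase genes were higher and 1 lower, beside 17.5% called higher. Plk1 had the largest fall, from 9.86, 9.77 and 9.82 to 9.52, 9.37 and 9.51 (-0.35, SE 0.072, limma adjusted p = 0.000197). Ccnb2 was next, from 9.92, 9.98 and 10.04 to 9.71, 9.59 and 9.68 (-0.33, SE 0.061, limma adjusted p = 5.39e-05). For both genes the highest treated sample was below the lowest vehicle sample. The other 6 were Bub1b, Cdc20, Kif11, Kif20a, Cenpf and Top2a, at -0.28 for Cenpf to -0.20 for Top2a. Mcm10, which helps to activate the helicase, rose with cyproheptadine from 8.65, 8.58 and 8.62 to 8.91, 8.89 and 8.92 (0.29, SE 0.065, limma adjusted p = 0.000553), again without overlap. Chaf1b (0.19) and Tyms (0.16) were the other rises and Mcm6 (-0.21) the S-phase fall. The count of 12 genes with cyproheptadine was 7 without STHdhQ111 vehicle replicate 1, and Plk1, Ccnb2, Kif20a, Mcm6 and Mcm10 were called whichever sample was left out. Kif11, Top2a, Cenpf, Bub1b and Chaf1b were the calls lost there, Kif11, Top2a and Tyms were lost without vehicle replicate 2, Cdc20 without vehicle replicate 3, and Kif11, Top2a, Tyms, Cdc20 or Chaf1b without 1 of the cyproheptadine samples.

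Loxapine, at the same 10 µM, gave 4 calls, all S-phase genes, with Mcm10 (0.23) and the helicase factor Cdc45 (0.20) higher and Mcm6 (-0.18) and the polymerase subunit Pola1 (-0.19) lower, beside 21.9% of all genes called in either direction. Pizotifen, at 5 µM, gave Chaf1b higher (0.16) and Mcm6 lower (-0.16), beside 17.9%. Mcm6 was thus called lower with all 3 compounds, against the same vehicle samples. Leaving out single samples moved the loxapine count to 1 (without loxapine replicate 2 or 3), 2 (without vehicle replicate 1 or 2) or 7 (without vehicle replicate 3), and the pizotifen count to 0 (without vehicle replicate 1) or 1 (without vehicle replicate 2 or pizotifen replicate 1 or 2). All 6 calls of the 2 compounds were lost without at least 1 sample. Against nicotinamide and nortriptyline, which shared loxapine's collection slots, loxapine gave 11 genes higher and 0 lower, beside 11.9% and 10.9% of all genes.

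Cyproheptadine and loxapine, both tricyclic compounds at 10 µM, were tested against each other. Ccnb2 was lower with cyproheptadine by 0.27 log2 units (95% interval -0.39 to -0.14, limma adjusted p = 0.00308), with loxapine samples at 9.97, 9.90 and 9.90 above all cyproheptadine samples, and this was the only call, beside 10.5% of all genes. Plk1 differed by -0.20 (95% interval -0.35 to -0.06, limma adjusted p = 0.0664) and Mki67 by -0.091 (95% interval -0.31 to 0.13), and 7 genes had an unadjusted p under 0.05, all lower with cyproheptadine. For the median gene the 95% interval reached 0.136 log2 units either side of the difference.

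Sodium butyrate and trichostatin A, both inhibitors of histone deacetylases, were given at doses that cannot be matched, 1 mM and 10 nM, and their values are set side by side. Sodium butyrate gave 9 genes higher and 5 lower, beside 19.6% and 17.8% of all genes. In either direction 28.6% of the 49 genes were called, beside 37.5% of all genes, so the counts did not exceed the background. Tk1 rose from 9.75, 9.77 and 9.89 to 10.27, 10.24 and 10.23 (0.44, SE 0.071, limma adjusted p = 5.27e-06) and was the highest of all 16 conditions. Cenpe, the kinetochore motor, fell from 10.52, 10.34 and 10.22 to 9.97, 10.05 and 10.07 (-0.33, SE 0.081, limma adjusted p = 0.00152). Neither gene overlapped its vehicle samples.

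The genes called higher with sodium butyrate came from both phases, the mitotic genes Aurkb (0.35), Birc5 (0.32), which anchors Aurkb at centromeres, and Cdk1 (0.31), and the S-phase genes Prim1, Gins2, Cdt1, Rfc4 and Tyms (0.25 to 0.17). The genes called lower were Mcm6 (-0.27), Rrm1 (-0.23), Cdc20 (-0.22), Mcm5 (-0.17) and Cenpe. So Tk1 and Rrm1, both of nucleotide supply, were called in opposite directions. Against nicotinamide and nortriptyline from the same collection slots the split moved to 17 higher and 3 lower (Mcm6, Cdc20 and Cenpe), beside 17% and 13.8% of all genes, with medians of 0.09 for the S-phase and 0.12 for the G2/M genes in place of 0.028 and -0.01, and Rrm1 and Mcm5 were no longer called. Against the vehicle, the calls of Tk1, Aurkb, Birc5, Cdk1, Prim1, Gins2, Cenpe, Mcm6 and Rrm1 stood whichever sample was left out. Those of Mcm5 (without vehicle replicate 1 or sodium butyrate replicate 1), Cdt1 (without vehicle replicate 1 or 2 or sodium butyrate replicate 2), Rfc4 (without vehicle replicate 1 or sodium butyrate replicate 1), Tyms (without vehicle replicate 2 or sodium butyrate replicate 1) and Cdc20 (without vehicle replicate 3 or sodium butyrate replicate 1 or 3) did not.

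Trichostatin A raised Cdk1 from 10.83, 10.91 and 11.01 to 11.18, 11.02 and 11.14 (0.20, SE 0.060, limma adjusted p = 0.0236) and gave no other call, beside 13.1% of all genes. The G2/M median was 0.10 and the S-phase median -0.0022, and 6 G2/M genes, Mki67, Ccnb2, Nusap1, Ccna2, Ccnb1 and Cdc25c, had their highest mean here. All 3 trichostatin A samples lay above the vehicle for 9 of 22 G2/M genes and below it for 8 of 27 S-phase genes, beside 15% and 16% of all genes. The Cdk1 call was lost without trichostatin A replicate 1 or 3 or vehicle replicate 1 or 2, and the count was 0 without trichostatin A replicate 1 or vehicle replicate 1 or 2, 2 without vehicle replicate 3 and 3 without trichostatin A replicate 2. Against haloperidol, from the same slots, 4 genes were higher and 0 lower (Cdk1, Ccnb2, Rfc4 and Tyms), beside 5.85% and 5.27% of all genes.

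DOP, a vitamin B6 antagonist that inhibits pyridoxal phosphate enzymes, lowered replication genes. Of the S-phase genes 9 of 27 were lower and none higher (median -0.12), and 1 of 22 G2/M genes was lower, Bub1b (-0.20, median of all 22 -0.10), beside 11.2% of all genes called lower and 8.93% called higher. The 3 DOP samples lay below all vehicle samples for 13 S-phase and 9 G2/M genes and above them for 1 gene, beside 19% and 17.5% of all genes tested, so the fall was not shown to be particular to the S-phase genes.

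Of the 12 licensing and helicase genes 5 were called lower with DOP, beside 11.2% of all genes. Mcm2 was at 11.71, 11.73 and 11.76 with vehicle and 11.55, 11.46 and 11.56 with DOP, so that every DOP sample was lower (-0.21, SE 0.042, limma adjusted p = 0.000452). Mcm10 was at 8.65, 8.58 and 8.62 with vehicle and 8.32, 8.30 and 8.48 with DOP (-0.25, SE 0.065, limma adjusted p = 0.005), also without overlap. Mcm3 was at 11.46, 11.32 and 11.39 and 11.18, 11.17 and 11.21 (-0.20, SE 0.060, limma adjusted p = 0.0134). Mcm5 (-0.23) and Mcm7 (-0.20) were lower as well, while Mcm4 (-0.12) and Mcm6 (-0.047) were not called.

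Rrm1 had the largest fall with DOP, from 11.66, 11.54 and 11.52 to 11.28, 11.35 and 11.33 (-0.25, SE 0.049, limma adjusted p = 0.000353). Its partner Rrm2 was at -0.13 and was not called (limma adjusted p = 0.359). The sliding clamp Pcna (-0.16), Pola1 (-0.24) and Uhrf1 (-0.18) completed the calls. Rrm1, Mcm2, Mcm5 and Mcm10 were called whichever sample was left out. Mcm3, Pola1, Uhrf1 and Bub1b were lost without vehicle replicate 1, Uhrf1 and Pcna without vehicle replicate 2, Pola1 and Bub1b without DOP replicate 1, Mcm3, Mcm7, Pcna and Uhrf1 without DOP replicate 2, and Pcna without vehicle or DOP replicate 3. The 10 calls became 6 without vehicle replicate 1, 6 without DOP replicate 2, and 6 against nicotinamide and nortriptyline from the same slots, where Mcm2, Mcm3, Mcm5, Mcm7, Mcm10 and Pcna stayed lower, beside 5.08% of all genes, and Rrm1, Pola1 and Uhrf1 were not called. The G2/M median was 0.03 in that comparison.

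STHdhQ7 vehicle cells held more of many replication mRNAs than STHdhQ111 vehicle cells. Of the S-phase genes 14 of 27 were higher and 2 lower (median 0.19), and of the G2/M genes 7 of 22 were higher and 2 lower (median 0.032), beside 29.2% and 26.6% of all genes. The G2/M count of higher genes thus stood close to the background of all genes, and that of lower genes stood below it. Genotype and line cannot be told apart, and the lines also differed in progenitor and other markers, with Nes at 10.95 (SD 0.91) against 4.96 (SD 0.24), Sox2 at 8.91 against 4.81, and Ptprc at 7.86 against 10.59 in STHdhQ7 against STHdhQ111 cells. What part these differences have in the values of the replication genes was not tested.

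Uhrf1 had the largest rise, 11.25, 11.04 and 11.08 in STHdhQ7 cells against 10.66, 10.60 and 10.58 in STHdhQ111 cells (0.51, SE 0.060, limma adjusted p = 2.52e-09). Mcm3 was at 11.91, 11.59 and 11.79 against 11.46, 11.32 and 11.39 (0.37, SE 0.060, limma adjusted p = 1.84e-06). In both genes the lines did not overlap. Chaf1a (0.38), which deposits histones at the fork with Pcna (0.34), and Mcm5, Mcm10, Cdc6 and Cdt1 (0.28, 0.27, 0.27 and 0.26) were higher too. Gins2 (-0.28) and Tyms (-0.22) were lower. The calls of Mcm7, Cdc6, Cdc45, Rfc4 and Rrm2 were lost without STHdhQ7 replicate 1 and without STHdhQ111 replicate 2. Those of Mcm7 and Rfc4 were also lost without STHdhQ7 replicate 3, that of Rfc4 without STHdhQ111 replicate 1 and that of Mcm7 without STHdhQ111 replicate 3.

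The B-type cyclins parted in the 2 lines. Ccnb2 was at 9.04, 9.07 and 9.28 in STHdhQ7 cells against 9.92, 9.98 and 10.04 in STHdhQ111 cells, a level of 0.554 of the STHdhQ111 level with no overlap (-0.85, SE 0.060, limma adjusted p = 3.61e-15), whereas Ccnb1 differed by 0.018 (95% interval -0.12 to 0.15). Ccna2 was lower as well (-0.33), but their kinase Cdk1 was higher (0.29), as were Kif23, Top2a, Bub1, Tpx2, Ttk and Cdc20 (0.28 to 0.21). Of these last, Top2a and Bub1 lost their calls without STHdhQ7 replicate 1, Tpx2 without STHdhQ7 replicate 3, Ttk without STHdhQ7 replicate 1 or 3 or STHdhQ111 replicate 3, and Cdc20 without STHdhQ7 replicate 3 or STHdhQ111 replicate 2. Mki67 was at 11.42, 11.11 and 11.49 against 11.60, 11.42 and 11.35 and was not called (-0.12, limma adjusted p = 0.361).

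Among the remaining 6 compounds few genes passed the test. Nicotinamide gave 4 genes lower, Ccne2 (-0.38), Pola1 (-0.30), Kif11 (-0.28) and Top2a (-0.25), beside 7.59% of all genes called lower. Nortriptyline and cysteamine each gave Pola1 alone, at -0.24 (limma adjusted p = 0.0331) and -0.21 (limma adjusted p = 0.0494), beside 3.83% and 7.83% of all genes called. The nicotinamide count was 0 without vehicle replicate 1 or nicotinamide replicate 2, 2 without vehicle replicate 2 or nicotinamide replicate 1, and 7 without vehicle replicate 3. The nortriptyline and cysteamine counts were 3 and 2 without vehicle replicate 3, and both were 0 without any other sample of their comparisons.

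Pola1, the catalytic subunit that primes replication, was at 9.73, 9.67 and 9.58 in the vehicle samples. It was called lower with 5 compounds, DOP, loxapine, nicotinamide, nortriptyline and cysteamine, all collected in the same slots as each other and at other times than the vehicle. Their samples lay between 9.28 and 9.51. Sodium butyrate, the sixth compound of those slots, was at 9.64, 9.64 and 9.67 and differed by -0.0092. The vehicle had the highest mean of all 16 conditions, so every compound lay below it, and among those of other slots pizotifen was at -0.16, cyproheptadine at -0.15, DKI at -0.15, selisistat at -0.15, meclizine at -0.12 and trichostatin A at -0.0022, none of them called. Collection slot and compound cannot be told apart for the 5 compounds with a call.

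Selisistat, fingolimod phosphate and haloperidol gave 0 of 49 calls by limma, beside 0.515%, 0.0597% and 0% of all genes tested. At an unadjusted p under 0.05 there were 9 of the 49 with selisistat (8 lower, with E2f1 higher at 0.29), 0 with fingolimod phosphate and 1 with haloperidol, as for 17.2%, 10.5% and 2.96% of all genes. No other tool was run, since the table holds no counts. Without selisistat replicate 1 its count was 2, and without replicate 3 it was 1. For the median gene these comparisons had a 95% interval of 0.135 log2 units either side, so smaller differences in such a gene were not resolved.

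Genes of the same pathways outside the list were counted in the same fits. Of 45 other mitosis genes, 44 were lower with DKI and 39 with meclizine, and none was higher with either, beside 21.9% and 13.6% of all genes called lower. The largest falls were Ckap2l, a spindle protein, with DKI (-0.79, SE 0.092, limma adjusted p = 5.25e-09) and Kif14, a kinesin of cytokinesis, with meclizine (-0.57, SE 0.091, limma adjusted p = 8.3e-06). Mybl2, which encodes B-MYB, was the single exception with DKI (-0.12, limma adjusted p = 0.405), and Foxm1, singled out here after its values were seen, was lower with both (-0.38 and -0.40). The other 44 replication genes were split, with 9 higher and 11 lower with DKI and 4 higher and 8 lower with meclizine. In both, Orc2 of the origin recognition complex had the largest rise (0.53 and 0.31) and the repressor E2f7 the largest fall (-0.62 and -0.54).

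Cyproheptadine raised 13 of the 44 other replication genes and lowered 1, and lowered 10 of the 45 other mitosis genes and raised 2, beside 17.5% of all genes called higher and 18.2% lower, so that the mitosis count lay near the background. DOP lowered 7 of the 44 and 7 of the 45 and raised 1 of each, with the polymerase epsilon subunit Pole at -0.32 and the separase Espl1 at -0.46, beside 11.2% of all genes called lower and 8.93% higher, so these counts lay near the background. In STHdhQ7 cells 15 of the 44 were higher and 7 lower, and 19 of the 45 were higher and 5 lower. Of all genes 29.2% were called higher and 26.6% lower, so the count of other replication genes called higher lay near the background.

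The G1 genes and the inhibitors of the cycle changed in both directions. Of 8 G1 cyclins and kinases, DKI and meclizine each raised 3 and lowered 2. Myc, a driver of growth and cell cycle entry, was higher with both (1.42, SE 0.12, limma adjusted p = 1.96e-12, and 1.01, SE 0.12, limma adjusted p = 1.56e-08), and cyclin D3 (Ccnd3) was lower (-0.47 and -0.33). Of 16 brakes on the cycle, which act at G1 or at G2/M, DKI raised 2 and lowered 7 and meclizine raised 2 and lowered 5. Both lists are short, and the shares of all genes called higher and lower were 20.4% and 21.9% with DKI and 13.1% and 13.6% with meclizine. Gadd45a, a stress-induced inhibitor of the G2/M transition, had the largest rise with both (1.66, SE 0.10, limma adjusted p = 2.77e-15, and 1.48, SE 0.099, limma adjusted p = 1.45e-13), and Ccng2, an atypical cyclin of resting cells, the largest fall (-0.87 and -0.42). Gadd45a was also the brake with the largest rise under cyproheptadine (0.85). The STHdhQ7 line differed most from STHdhQ111 among the G1 genes in the cyclin gene Ccnd2 (2.47, SE 0.11, limma adjusted p = 1.49e-21) and among the brakes in Cdkn1c (-0.98) and Cdkn1a (0.89), both inhibitors of cyclin-dependent kinases.

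Of the 49 genes, 22 overlap another gene of the GENCODE M21 annotation of GRCm38. Afmid (Tk1), Oip5 (Nusap1), Exosc9 (Ccna2), Cops6 (Mcm7) and Ubxn6 (Chaf1a) lie on the opposite strand. Other neighbours, such as Gm20388 (Cdt1) and Gm45399 (Rrm1), lie on the same strand, where strand cannot separate them. The library kit keeps strand, but whether the quantification used it is not given in the sources used here. Part of the values of these 22 genes may therefore come from their neighbours.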

How the data were processed

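RNA-Seq was carried out on poly(A) RNA of 48 samples with a directional library kit and single-end reads. The authors trimmed reads with Trimmomatic 0.36, quantified them with RSEM against the GRCm38.p5 transcriptome and used DESeq2 with collection day in the model. The deposited values are normalized abundances on a log2 scale from -2.34 to 18.62, and the transformation behind them is not given in the sources used here. Read depth per sample is unknown, so no counting interval could be given, and the linear sums of the samples differed by a factor of up to 1.11432.

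The 13409 of 27281 genes that had a symbol and averaged 1 or more on the log2 scale were fitted together with limma 3.58.1 (R 4.3.3) on all 48 samples, with condition and collection day as terms, a mean-variance trend and 30 residual degrees of freedom. Genes with a two-sided p-value under 0.05 after Benjamini-Hochberg adjustment over these 13409 genes are said to be called, higher, lower, risen or fallen. Intervals are 95% intervals of that fit. The DESeq2 model was not repeated, since no counts were used here. The fit was tested on simulated data.

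Values in every sample are given for the 4 S-phase and 4 G2/M genes with the widest range of condition means and for the called gene with the largest rise and fall in each comparison with at least 5 calls, plus Cdk1 and Pola1, added after their values were seen. Other genes come from whole lists, with the largest rise and fall named unless the gene is not reported here. The 49 genes, the lists and the tests were chosen with earlier results of these data known. The alternatives were another filter, no day term, collection time, a replicate block, a rescaling to the median gene, a fit to the compared samples alone, each sample left out, and compounds of the same collection slots as reference. This last one, and the pairs of DKI with meclizine and with cyproheptadine, were added after the data had been seen. Promoter windows came from RefSeq (GRCm38.p6). Python 3.11.15 with matplotlib 3.10.9 drew the figures.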

Additional observations from a re-analysis of the deposited data

How the results depend on the processing

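All 22 G2/M genes had a negative difference with DKI and with meclizine whichever sample was left out, the value nearest to 0 being -0.16, and the direction of no shown gene turned in the 533 values recomputed for called genes, of which 506 were still called and 27 were not. Of 134 counts of called genes recomputed under alternatives other than leaving out a single sample, 115 stayed within 1.5 times the main count. Against compounds of the same collection slots, chosen after seeing the data, loxapine gave 11 genes in place of 4, DOP 6 in place of 10, trichostatin A 4 in place of 1 and cysteamine 0 in place of 1. With only the compared samples in the fit, which leaves fewer samples to estimate the spread, DOP gave 4, trichostatin A 0, nicotinamide 7, nortriptyline 0, cysteamine 4 and meclizine against DKI 0. Without the collection day, trichostatin A gave 3, cyproheptadine against loxapine 3 and meclizine against DKI 3. With a mean log2 value of at least 5 trichostatin A gave 2. With no filter cysteamine gave 0 and meclizine against DKI 2, and with collection time as a term or with rescaling cysteamine gave 0. The cause was not tested in these cases. Leaving out each sample in turn gave 20 to 27 genes for STHdhQ7, 25 to 33 for meclizine, 10 to 14 for sodium butyrate, 7 to 14 for cyproheptadine, 1 to 7 for loxapine, 6 to 9 for DOP, 0 to 2 for selisistat, 0 to 3 for trichostatin A, 32 to 38 for DKI, 0 to 7 for nicotinamide, 0 to 3 for nortriptyline, 0 to 2 for pizotifen, 0 to 2 for cysteamine, 0 for fingolimod phosphate and haloperidol, 1 for cyproheptadine against loxapine, 28 to 35 for DKI against cyproheptadine and 0 to 7 for meclizine against DKI.

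The replicate numbers did not pair the samples, since the mean correlation of deviations was -0.0487 between samples with the same number and 0.0245 between others. A replicate block in place of the day gave 14 genes for cyproheptadine, 11 for DOP and 2 for trichostatin A, and the same counts as the main fit for the others, with 36 for DKI, 29 for meclizine, 25 for STHdhQ7 and 14 for sodium butyrate. The depth behind the values is unknown, so the interval of the fit, 0.135 log2 units either side for the median gene, is the limit on small differences. With 3 samples a condition from 1 line of each genotype, differences between lines cannot be told apart from genotype, nor can compound and collection slot where they coincide.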
